A study of Mus musculus with 9 samples.

Results

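This account covers 10 keratin genes, Krt5, Krt6a, Krt7, Krt8, Krt14, Krt15, Krt16, Krt17, Krt18 and Krt19, of 19938 genes measured. They were taken from a list of luminal and basal keratins, and each was read from its only probe set, the group of array probes that stands for a gene. Expression was measured with 1 Affymetrix mouse array in each of 9 cell lines taken back into culture from mice that carried 4T1, a metastatic carcinoma line of the mouse mammary gland. There were 3 lines from brain metastases (4T1-BM2), 3 from lung metastases (4T1-LM2) and 3 from primary tumors (4T1-T2), called brain, lung and primary lines and numbered by mouse within each origin. Every line is from its own mouse. The labels name no treatment or engineered allele, and give neither age nor strain of the host mice. All lines were thawed, cultured and extracted in parallel, so the values describe cells in culture. Lines of 1 origin share a name, and the labels do not say whether they go back to a common selected population, in which case they would count as fewer independent samples.

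Keratins are the intermediate filament proteins of epithelial cells. A filament needs a type I keratin (Krt14 to Krt19 here) paired with a type II keratin (Krt5, Krt6a, Krt7 and Krt8), and cells change their pairs as they differentiate. In the mammary gland, luminal cells are known for Krt8 with Krt18, joined by Krt7 and Krt19, while basal cells next to the matrix are known for Krt5 with Krt14, joined by Krt15 and Krt17. Krt6a, Krt16 and Krt17 are induced in skin keratinocytes by wounding and stress.

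Levels below are log2 intensities made with RMA, so 1 unit is a doubling, and they are compared between lines of the same gene and not between genes. The median of the probe sets with no gene symbol, 4.21, serves as a mark for low signal. Array medians were 5.06 to 5.19, and precision is limited by having 3 arrays an origin. The array's own spread (interquartile range of relative log expression) was 0.201 in brain line 3 and 0.186 in lung line 1, against 0.116 to 0.141 in the other lines. All 13 mammary epithelial markers checked, among them Epcam and Cdh1 but also Krt8 and Krt18, averaged more than 2 log2 units above 4.21. Of 10 mammary basal markers, a list that holds Krt5 and Krt14, only Krt14 did.

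The luminal pair Krt8 and Krt18 was high in every line, with means above 99.5% and 99.4% of the probe sets with no symbol. Krt8, the type II partner in simple epithelia, had levels of 12.82, 12.90 and 12.63 in brain lines, 12.89, 12.95 and 12.95 in lung lines and 12.85, 12.73 and 13.03 in primary lines. Krt18, its type I partner, had 12.72, 12.81 and 12.45 in brain lines, 12.76, 12.70 and 12.66 in lung lines and 12.56, 12.43 and 12.78 in primary lines. The 3 origins overlapped in both genes, and the whole range over 9 lines was 1.32-fold for Krt8 and 1.30-fold for Krt18. For brain against primary lines the log2 change was -0.08 for Krt8 (95% confidence interval -0.30 to 0.13) and 0.07 for Krt18 (-0.18 to 0.32). Against lung lines it was -0.15 for Krt8 (-0.36 to 0.07) and -0.05 for Krt18 (-0.30 to 0.20). None of these passed the test, with limma adjusted p from 0.550 to 0.903, and the intervals leave room for changes of up to 0.36 log2 units.

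Krt19, a type I keratin without a tail domain that is widely used as a marker of carcinoma cells, set the origins apart in a graded way. Its levels were 9.50, 9.68 and 9.39 in brain lines, 9.03, 9.09 and 8.97 in lung lines and 8.56, 8.68 and 7.53 in primary lines. No origin overlapped another, with brain lines highest, lung lines next and primary lines lowest, and primary line 3 lay 1.03 log2 units below the next primary line. In brain against primary lines Krt19 rose 2.40-fold (log2 change 1.27 ± 0.25, SE of the model, 3 lines each, limma adjusted p = 0.0262). In this bulk RNA a gain in the share of cells that express a gene and a gain in RNA per cell cannot be told apart. The change was 0.49 ± 0.25 in brain against lung lines (adjusted p = 0.401) and 0.77 ± 0.25 in lung against primary lines (adjusted p = 0.975), and neither passed. Without primary line 3 the change in brain against primary lines was 0.90 and still passed (adjusted p = 0.00643). The change in brain against lung lines then passed too (adjusted p = 0.0310), although it stayed at 0.49. Primary line 3 is not part of that comparison and enters it only through the spread that the model shares over all lines. The call in brain against primary lines was lost without brain line 1 (adjusted p = 0.0668), 2 (0.0884) or 3 (0.0617) and without lung line 2 (0.0530) or 3 (0.0528). Over the 3 origins the F test gave adjusted p = 0.0614. With the mouse number as a block the F test gave 0.0292, but the number stands for different mice in each origin.

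Krt7, a type II keratin of glandular and ductal epithelia, was high in all lines. It had 11.76, 11.98 and 11.38 in brain lines, 11.22, 11.40 and 11.40 in lung lines and 11.29, 10.92 and 11.27 in primary lines. Every brain line was above every primary line, while brain line 3 lay among the lung lines. The log2 change was 0.55 ± 0.15 in brain against primary lines (SE, limma adjusted p = 0.0904) and 0.37 ± 0.15 in brain against lung lines (adjusted p = 0.292). Krt7 passed in brain against primary lines without brain line 3 (0.71, adjusted p = 0.0340) and with array weights (0.63, adjusted p = 0.0393).

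**Figure D1:**
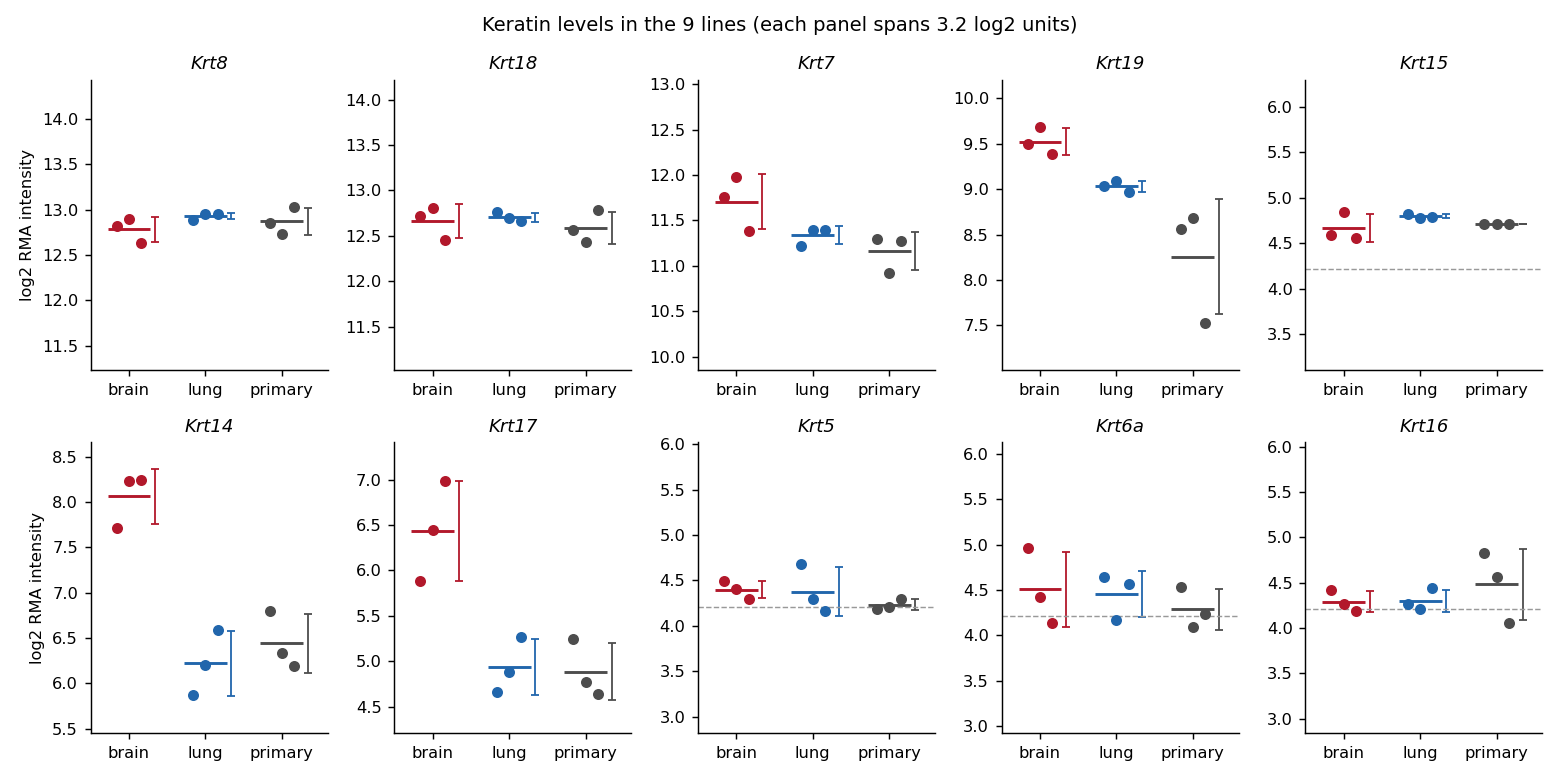
Level of each keratin as log2 RMA intensity (y axis, 3.2 log2 units in each panel) in brain, lung and primary lines. Points are single lines, horizontal lines are means, side bars are SD over 3 lines, and the dashed line is the 4.21 median of probe sets with no symbol. Brain lines stand above all other lines in Krt14, Krt17 and Krt19, and all 9 lines lie within 0.40 log2 units in Krt8 and within 0.38 in Krt18.

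Krt14, the basal type I keratin, showed the largest difference of the 10 genes. Its levels were 7.71, 8.23 and 8.24 in brain lines, 5.87, 6.20 and 6.59 in lung lines and 6.80, 6.33 and 6.19 in primary lines. The lowest brain line was 0.91 log2 units above the highest line of any other origin, and lung and primary lines overlapped. Krt14 rose 3.07-fold in brain against primary lines (log2 change 1.62 ± 0.22, SE, limma adjusted p = 0.00568) and 3.57-fold in brain against lung lines (1.84 ± 0.22, adjusted p = 0.00631). In lung against primary lines the change was -0.22 ± 0.22 (adjusted p = 0.975). Both calls held in each of the 9 fits that dropped a single line, with adjusted p up to 0.0293 and 0.0362. With brain line 3 and lung line 1 left out together, the arrays of widest spread, the call in brain against lung lines was lost (1.57, adjusted p = 0.0681).

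Krt17, the type I keratin that basal cells and activated keratinocytes share, had 5.88, 6.45 and 6.98 in brain lines, 4.66, 4.88 and 5.27 in lung lines and 5.24, 4.77 and 4.64 in primary lines. All brain lines were above all others, although the means of the lung lines (4.94) and primary lines (4.88) were within 1 log2 unit of the low-signal mark. Krt17 rose 2.94-fold in brain against primary lines (1.55 ± 0.27, SE, limma adjusted p = 0.0153) and 2.82-fold in brain against lung lines (1.50 ± 0.27, adjusted p = 0.0230). The call against primary lines was lost without brain line 2 (adjusted p = 0.0560) or primary line 2 (0.0657) or 3 (0.0608). Against lung lines it ended on dropping brain line 2 (0.0742) or 3 (0.0593), or lung line 1 (0.0936), 2 (0.103) or 3 (0.0531). Over these single-line fits the change stayed between 1.28 and 1.83 against primary lines and between 1.22 and 1.78 against lung lines. Within each origin the line with the least Krt14 also had the least Krt17 (brain line 1, lung line 1 and primary line 3), and the line with the most Krt14 had the most Krt17 (brain line 3, lung line 3 and primary line 1).

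The other basal and stress keratins stayed near the low-signal mark in every line. Krt5, the usual type II partner of Krt14, had 4.49, 4.40 and 4.30 in brain lines, 4.68, 4.29 and 4.16 in lung lines and 4.19, 4.21 and 4.30 in primary lines, so the origins overlapped. Its mean over 9 lines exceeded 52.7% of the probe sets with no symbol, and its log2 change was 0.16 ± 0.12 in brain against primary lines (SE, limma adjusted p = 0.619). The log2 difference of Krt14 and Krt5 within a line, set to 0 at the mean of the primary lines, was 1.01, 1.62 and 1.72 in brain lines, -1.02, -0.30 and 0.22 in lung lines and 0.40, -0.08 and -0.32 in primary lines. It is a description with no test, and a change in Krt5 this close to background could be hidden.

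Krt15, a type I keratin of basal and progenitor cells, spanned 4.56 to 4.84 over all lines, with changes of -0.05 ± 0.08 in brain against primary and -0.14 ± 0.08 in brain against lung lines (SE). The lung lines, at 4.78 to 4.82, lay above the primary lines, which were all at 4.71, but this difference of 0.09 did not pass (limma adjusted p = 0.975). Krt6a, the type II stress keratin, spanned 4.09 to 4.96 and was highest in brain line 1, while brain line 3 was at 4.14. Krt16, the type I stress keratin, spanned 4.06 to 4.83 and was highest in primary line 1. Their changes in brain against primary lines were 0.22 ± 0.21 and -0.19 ± 0.17, and neither passed (adjusted p = 0.719 and 0.683). Neither Krt15 nor Krt16 had a change over 0.19 in size in the comparisons of brain lines. Paralogous keratins are similar in sequence, and cross-hybridisation was not tested. The levels of Krt14 and Krt17 ran together over all lines (Pearson's r = 0.97). Their log2 difference (Krt17 minus Krt14, primary mean set to 0) was 0, 0 and 0.01 in primary lines. It was -0.27, -0.22 and 0.31 in brain lines and 0.35, 0.24 and 0.24 in lung lines. Whether the probe sets of Krt14 and Krt17 detect each other's RNA was not tested.

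**Figure D2:**
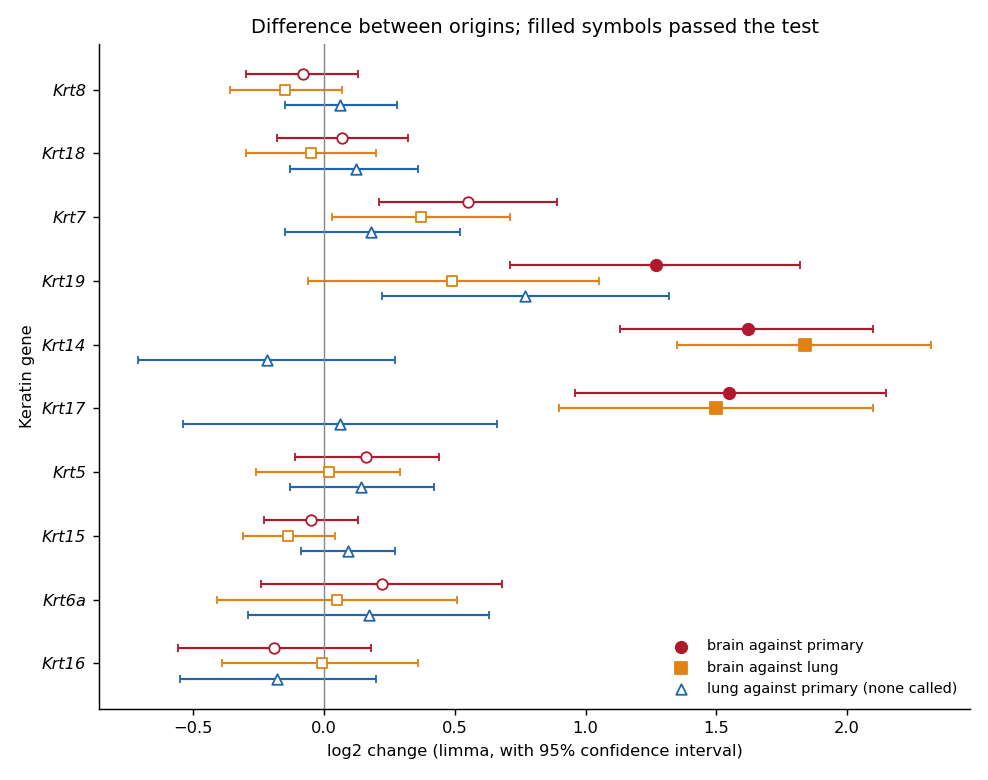
Log2 change of each keratin (x axis) in brain against primary, brain against lung and lung against primary lines, with 95% confidence intervals of the limma model. Filled symbols passed at an adjusted p under 0.05. Krt14 and Krt17 passed in both comparisons of brain lines, Krt19 in brain against primary lines, and no keratin in lung against primary lines.

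In counts, 3 of the 10 keratins rose in brain against primary lines (Krt14, Krt17 and Krt19), 0 fell and 7 did not pass. Over all 19938 genes 3.13% passed in that comparison and 1.56% passed and were higher. The median log2 change of the 10 was 0.19, and 0 over all genes. In 4 of the 10, those 3 and Krt7, all brain lines were above all primary lines, where 9.36% of all genes were higher without overlap. The same 4 had an unadjusted p under 0.05, against 15.8% of all genes. In brain against lung lines 2 of 10 rose (Krt14 and Krt17) and 0 fell, against 1.98% of all genes that passed and 0.913% that passed and were higher. There the median was 0.03 for the 10 and -0.01 over all genes, and 3 of the 10 were higher without overlap, against 8.27% of all genes. Those 3, Krt14, Krt17 and Krt19, did not include Krt7. In limma 3 of 10 had an unadjusted p under 0.05, namely Krt7, Krt14 and Krt17, against 14.9% of all genes. The 2 comparisons share the brain lines. Without brain line 3 and lung line 1 the counts were 1 (Krt14) against primary lines and 0 against lung lines. In lung against primary lines 0 of 10 passed in limma and 1 (Krt19) had an unadjusted p under 0.05, where 0% and 4.74% of all genes did. Krt15 and Krt19 were the 2 keratins higher in lung lines without overlap, against 4.88% of all genes. The F test over the 3 origins called 2 of 10 (Krt14 and Krt17), against 2.36% of all genes.

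The 3 keratins that rose lie near each other, with low keratins between them. In the reference gene order the type I keratins lie together on chromosome 11, where Krt15 is followed by Krt19, Krt9, Krt14, Krt16, Krt17 and Krt42. Of 26 keratins measured there, 3 rose in brain against primary lines, and the others had log2 changes between -0.20 and 0.35. Of the 26, 23 averaged under 6, among them Krt9 at 3.88, Krt16 at 4.36 and also Krt17 at 5.42, which rose. At such levels a change in most of the keratins that did not rise could be hidden. Krt16 lies between Krt14 and Krt17, and Krt9, between Krt19 and Krt14, had a change of 0.10 ± 0.07 (SE). The type II keratins and Krt18 lie on chromosome 15, where 1 of 23 rose and 19 of 23 averaged under 6. The gene that rose was Krt80, a type II keratin linked to epithelial differentiation and next in order to Krt7.

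**Figure D3:**
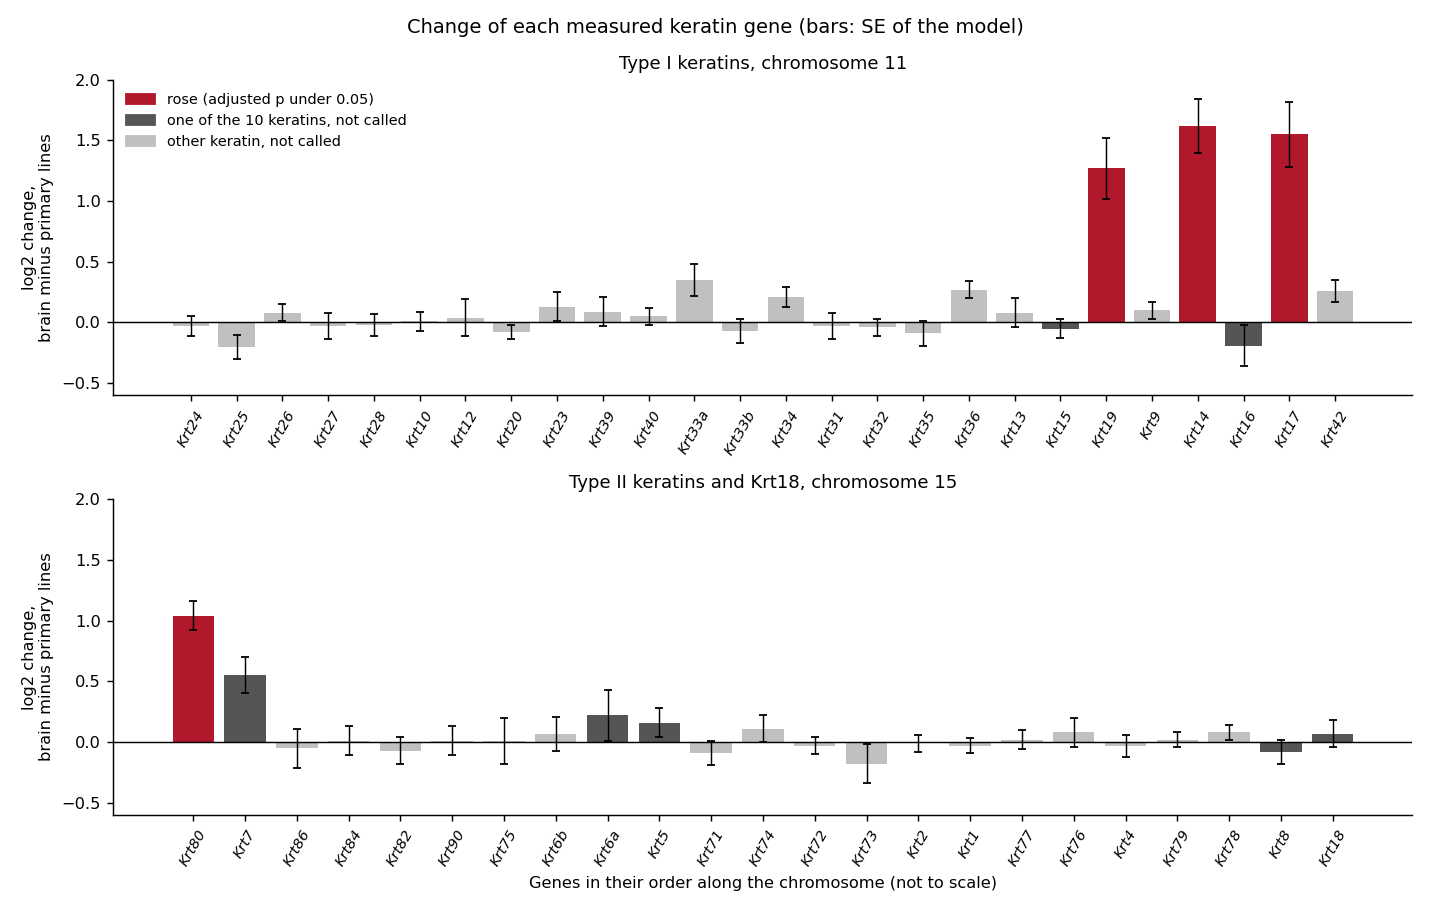
Log2 change in brain minus primary lines (y axis) of 49 measured keratins in their order along chromosomes 11 and 15 (x axis, not to scale), with the SE of the model as error bars. Krt19, Krt14 and Krt17 on chromosome 11 and Krt80 on chromosome 15 rose, and Krt16, between Krt14 and Krt17, is at -0.19.

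Among 39 other keratins measured, Krt80 was the 1 that rose, in brain against both primary and lung lines, and 0 fell, with a median log2 change of 0.01 against primary lines. A share of 1 in 39 is near that of all genes, of which 1.56% passed and were higher against primary lines and 0.913% against lung lines. Its levels were 7.72, 7.97 and 7.75 in brain lines, 6.87, 7.02 and 7.14 in lung lines and 6.68, 6.64 and 7.02 in primary lines, without overlap between brain and the other lines. Krt80 rose 2.05-fold against primary lines (1.04 ± 0.12, SE, limma adjusted p = 0.00290) and 1.75-fold against lung lines (0.80 ± 0.12, adjusted p = 0.0131), and the call against lung lines was lost without lung line 1 (0.0547) or 2 (0.0663).

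Keratin filaments end at desmosomes, which join cells, and at hemidesmosomes, which hold cells to the matrix. Of 23 measured genes of this anchorage 2 rose and 1 fell in brain against primary lines (median 0.01), and 1 rose and 1 fell in brain against lung lines (median -0.04). Over all genes 3.13% passed against primary lines and 1.98% against lung lines. Pkp2, a plakophilin of the desmosomal plaque, had 7.71, 8.11 and 8.13 in brain lines, 6.97, 7.53 and 7.50 in lung lines and 6.96, 7.37 and 6.81 in primary lines, with brain lines above all others. It rose by 0.93 ± 0.19 on the log2 scale against primary lines (SE, limma adjusted p = 0.0297), a call that ended when brain line 2 (0.0992) or 3 (0.0934), lung line 3 (0.0513), primary line 1 (0.102) or primary line 3 (0.101) was dropped. Against lung lines its change of 0.65 did not pass (adjusted p = 0.128), but did with the mouse number as a block (0.0437). Pkp4, a related junction protein, rose by 0.45 ± 0.10 (adjusted p = 0.0495), a call lost without any 1 of the 9 lines (0.0589 to 0.136). Lad1, ladinin, an anchoring filament protein, rose against lung lines (0.43 ± 0.07, adjusted p = 0.0211) and had 0.22 ± 0.07 against primary lines (adjusted p = 0.157). Leaving out brain line 2 (0.0525) or 3 (0.0504) ended the Lad1 call, as did leaving out lung line 1 (0.0588), 2 (0.0800) or 3 (0.0716).

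Cd151, a tetraspanin that accompanies laminin-binding integrins in hemidesmosomes, was lower in every brain line, at 9.75, 10.01 and 9.68 in brain lines, 10.30, 10.55 and 10.41 in lung lines and 10.25, 10.40 and 10.59 in primary lines. It fell in brain against primary lines (-0.60 ± 0.12, SE, limma adjusted p = 0.0254) and in brain against lung lines (-0.61 ± 0.12, adjusted p = 0.0307). The call against primary lines ended on dropping brain line 1 (0.0743) or 3 (0.0793), lung line 3 (0.0501) or primary line 2 (0.0819) or 3 (0.0831). The call against lung lines ended on dropping brain line 1 (0.0866) or 3 (0.103), any lung line (0.0689 to 0.135) or primary line 2 (0.0593). With the arrays centred on their medians Cd151 passed against neither primary lines (-0.56, adjusted p = 0.0587) nor lung lines (-0.58, adjusted p = 0.0640).

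Of 30 measured transcription factors and cofactors known to act on keratin genes, 1 rose and 4 fell in brain against primary lines (median -0.04), and 2 rose and 1 fell in brain against lung lines (median -0.04), where 3.13% and 1.98% of all genes passed. Tfap2a, an AP-2 factor of epidermal genes, had 7.56, 7.66 and 7.47 in brain lines, 7.85, 7.83 and 7.77 in lung lines and 8.04, 8.06 and 8.25 in primary lines. No origin overlapped another, and Tfap2a fell in brain against primary lines (-0.55 ± 0.08, SE, limma adjusted p = 0.00816, kept without any 1 line), with -0.25 ± 0.08 against lung lines (adjusted p = 0.167). Sox9, a factor of progenitor cells in several epithelia, averaged 9.08 in brain, 9.34 in lung and 9.57 in primary lines, and fell against primary lines (-0.49 ± 0.06, adjusted p = 0.00518, kept without any 1 line). Grhl2, a grainyhead factor of epithelial junction genes, averaged 7.71 in brain, 7.20 in lung and 7.35 in primary lines, and rose against lung lines (0.51 ± 0.10, adjusted p = 0.0389). The Grhl2 call held in 1 of the 9 single-line fits (adjusted p up to 0.120) and not with the arrays centred on their medians (0.0607). Elf3, an epithelial Ets factor, was above all other lines in the brain lines and rose by 0.57 ± 0.11 against primary lines (adjusted p = 0.0243) and by 0.54 ± 0.11 against lung lines (adjusted p = 0.0352). Cebpb, a factor of keratinocyte differentiation, fell against primary lines (-0.49 ± 0.09, adjusted p = 0.0239) and against lung lines (-0.51 ± 0.09, adjusted p = 0.0253). Hr, the hairless corepressor, fell against primary lines (-0.72 ± 0.15, adjusted p = 0.0367). The Elf3, Cebpb and Hr calls against primary lines were each lost without any 1 brain line (adjusted p 0.0558 to 0.110). For Elf3 they were also lost without any 1 primary line (0.0525 to 0.0836), for Cebpb without primary line 2 (0.0858) or 3 (0.0831), and for Hr without any lung line or primary line 1 or 2 (0.0605 to 0.123). Against lung lines Elf3 passed in 1 and Cebpb in 4 of the 9 single-line fits, and Elf3 did not pass with the arrays centred on their medians (0.0537). Trp63, which encodes p63, the factor known for keeping basal keratins on in stratified epithelia, averaged 4.91 in brain, 4.85 in lung and 4.89 in primary lines, and its change against primary lines was 0.03 ± 0.08 (adjusted p = 0.938).

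**Figure D4:**
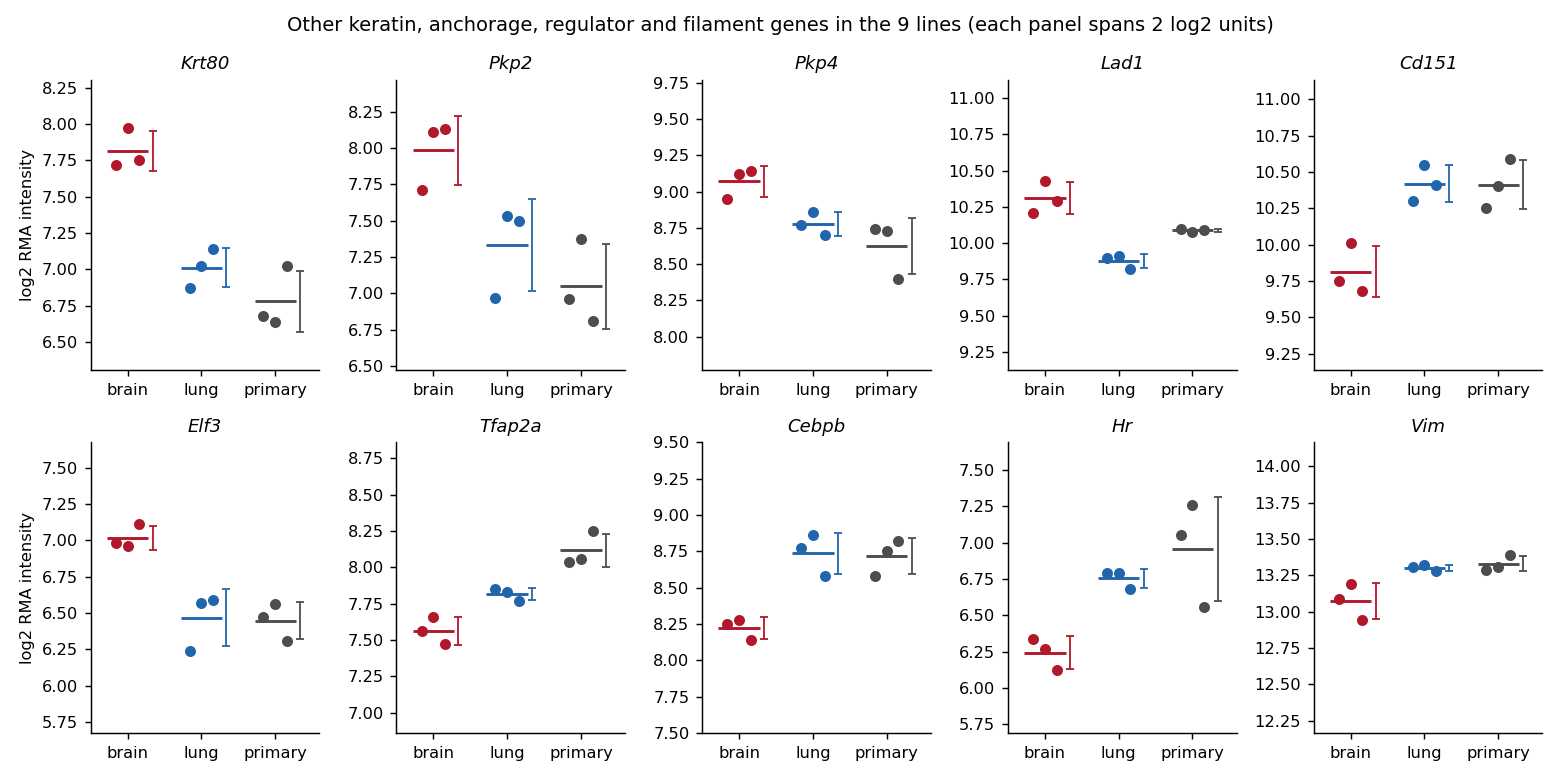
Levels as log2 RMA intensity (y axis, 2 log2 units in each panel) of Krt80, anchorage genes, regulators and vimentin in brain, lung and primary lines. Points are single lines, horizontal lines are means and side bars are SD over 3 lines. Brain lines are above all others in Krt80, Pkp2, Pkp4, Lad1 and Elf3 and below all others in Cd151, Tfap2a, Cebpb, Hr and Vim.

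Of 17 other intermediate filament genes 0 passed in any comparison of the main limma fit. Vim, which encodes vimentin, the mesenchymal filament, had 13.09, 13.19 and 12.94 in brain lines, 13.31, 13.32 and 13.28 in lung lines and 13.29, 13.31 and 13.39 in primary lines. Brain lines were lowest without overlap, and the change of -0.26 ± 0.08 against primary lines (SE, adjusted p = 0.108) did not pass. Vim passed there in 1 of 21 alternatives, the limma fit with a trend and a robust prior (-0.26, adjusted p = 0.0443). Nes, nestin, had 0.26 ± 0.13 (adjusted p = 0.395). Of 23 genes of keratinocyte differentiation and the cornified envelope 0 passed in limma in any comparison, and the median change against primary lines was -0.06. The largest values there were those of Sfn, 14-3-3 sigma (0.82 ± 0.23, adjusted p = 0.0959), and of S100a8, whose mean levels of 3.99 in brain and 4.28 in primary lines lie at the low-signal mark.

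Markers of other cell types were read in the same arrays. The mean level of 9 lung epithelium markers was 4.82 to 4.89 in brain, 4.70 to 4.84 in lung and 4.78 to 4.81 in primary lines, with 0 of 9 passing. The means of 8 astrocyte markers (5.60 to 5.63 in brain, 5.56 to 5.72 in lung and 5.65 to 5.67 in primary lines) and of 8 neuron markers (4.70 to 4.79 in brain, 4.83 to 4.95 in lung and 4.77 to 4.80 in primary lines) were not higher in brain lines. In these 2 lists 1 of 8 astrocyte markers (Sox9, above) fell in brain against primary lines and 0 of 8 neuron markers passed. Of 7 endothelial markers 1 fell, Flt1, a VEGF receptor (-0.53 ± 0.10 against primary lines, adjusted p = 0.0250), a call that held in 4 of the 9 single-line fits. Among 6 oligodendrocyte and 9 fibroblast and pericyte markers 0 passed in limma, with list means of 4.74 to 4.92 in brain, 4.75 to 5.06 in lung and 4.80 to 4.91 in primary lines for the first and of 4.90 to 5.10 in brain, 4.97 to 5.11 in lung and 5.05 to 5.24 in primary lines for the second. Of 9 microglia and macrophage markers 0 averaged more than 2 log2 units above 4.21. Mesothelial cells also make simple keratins. The mean of 6 mesothelium markers was 5.44 to 5.46 in brain, 5.30 to 5.43 in lung and 5.29 to 5.32 in primary lines, and 1 of 6 rose in brain against primary and against lung lines, Msln, mesothelin, which averaged 11.17 in brain, 10.53 in lung and 10.51 in primary lines. Wt1, a defining factor of mesothelium, averaged 5.34 in brain, 5.42 in lung and 5.31 in primary lines. Of the 10 mammary basal markers only Krt14 passed in limma, in both comparisons of brain lines. Against primary lines Acta2 and Tagln of that list went the other way, with every primary line above every brain line. Their log2 changes of -1.15 ± 0.35 and -0.42 ± 0.13 (SE) did not pass (limma adjusted p = 0.122 and 0.119). Tagln averaged 4.34 in brain and 4.76 in primary lines, near the low-signal mark. The mean of the 13 mammary epithelial markers, Krt8 and Krt18 among them, was higher in brain lines without overlap. It was 9.76 to 9.91 in brain, 8.92 to 9.29 in lung and 8.84 to 9.34 in primary lines. Its part in the differences of Krt14, Krt17 and Krt19 was not tested. Against primary lines 4 of 13 rose, where 1.56% of all genes did. They were Cdh1, E-cadherin (0.90 ± 0.19), the claudin gene Cldn3 (1.43 ± 0.26), the splicing regulator Esrp2 (0.71 ± 0.11) and the protease gene St14 (0.67 ± 0.13), and their calls held in 1, 7, 9 and 5 of the 9 single-line fits. Against lung lines 3 of 13 rose, where 0.913% of all genes did. They were Cldn7 (1.54 ± 0.32), Rab25 (2.31 ± 0.40) and St14 (0.61 ± 0.13), and their calls held in 2, 4 and 2 of these fits. With the mouse number as a block the Cldn7 (0.0594) and St14 (0.0621) calls against lung lines and the Cdh1 call against primary lines (0.0538) were lost. The same block added calls of Rab25 against primary lines (1.65, limma adjusted p = 0.037) and of Esrp2 against lung lines (0.43, adjusted p = 0.0342).

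The genes whose pattern over the 9 lines was most like that of a keratin that rose were found by Pearson's r among 14410 genes, given as a description because the lines fall into 3 origins. For Krt14 they were Ndufa10 (0.989), Pwp1 (0.984), Tmcc3 (0.983), Ogfod1 (0.975) and Arhgef3 (0.974). For Krt17 they were Ndufa10 (0.983), Pwp1 (0.979), Epb41l2 (0.977), Cdcp1 (0.976) and Nuak2 (0.971), so the first 2 were shared with Krt14. For Krt19 they were Gpat3 (0.980), Stk10 (0.972), Nr2c2ap (0.962), Grb7 (0.961) and Tfrc (0.959), and none was shared with Krt14 or Krt17. Pearson's r does not measure the size of a change. Ndufa10 changed by 0.19 ± 0.06 against primary and 0.21 ± 0.06 against lung lines (SE, limma adjusted p = 0.152 and 0.141). Tmcc3, Ogfod1, Arhgef3 and Nuak2 rose in both comparisons of brain lines, and Pwp1 and Cdcp1 only against primary lines. Ndufa10, Epb41l2 and the genes named for Krt19 passed in neither.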

How the data were processed

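The deposited values are log2 intensities after RMA by the authors, a tool named in the submitters' processing notes. The log base is read from the range of the values, and neither a version of RMA nor a build was given. Of 35557 probe sets, 21789 had 1 symbol in the platform annotation, 1621 several and 12147 none. Symbols with several probe sets were read from the one with the highest mean, which left 19938 genes. Gene order came from the GRCm38.p6 gene table.

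One limma model (R 4.3.3, limma 3.58.1) with a coefficient per origin was fitted to all 9 arrays (6 residual and 3.72 prior degrees of freedom, two-sided, tested on simulated data). A gene was called at a p under 0.05 after Benjamini-Hochberg adjustment over all 19938. An exact permutation test of 3 against 3 lines cannot go below 0.1, so none is given. The mouse number, which stands for different mice in each origin, was tried as a block. Deviations of same-numbered lines correlated at 0.284, 0.130 and 0.241 for brain and lung lines. They correlated at 0.0666, -0.000736 and -0.0442 for brain and primary lines, and at 0.221, 0.0785 and 0.00798 for lung and primary lines. From each companion list, up to 4 called genes with the largest changes, or 2 where none was called, were named; Trp63, Sox9, Grhl2 and the cell type markers were named after their values were seen. The members and lists were chosen with earlier results of these data known.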

Additional observations from a re-analysis of the deposited data

How the results depend on the processing

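The main counts of keratins called were 3 in brain against primary, 2 in brain against lung and 0 in lung against primary lines, and 2 in the F test. They were within 1.5 times of these with quantile normalization again, median centring, the dimmest 33.3% of genes left out (which removes Krt5, Krt6a and Krt16), a trend with a robust prior, array weights, and probe sets averaged per gene. With the replicate block the counts were 3, 2 and 0, with 3 in the F test, and no other call of a keratin changed. Every probe set tested, and an adjusted p under 0.01, left 1 call in each brain comparison and 1 in the F test. Only the 6 arrays compared left 1 call in each brain comparison. In each of these cases it was Krt14. Without moderation of the variances limma called 0 in all, with 4, 2 and 3 keratins at an unadjusted p under 0.05 in brain against primary, brain against lung and the F test. Without brain line 3 and lung line 1, an alternative added after seeing the data, the counts were 1 against primary lines, 0 against lung lines and 0 in the F test. Leaving out 1 line gave 1 to 3 calls against primary lines, 1 to 3 against lung lines and 1 to 3 in the F test. The lung against primary count was 0 in every alternative run, with 1 or 2 keratins at an unadjusted p under 0.05. No called keratin changed direction. Among keratins not called, 20 alternative values had the opposite sign, all with a main change of at most 0.22. Levels near 4.21 may hide changes in Krt5, Krt6a, Krt15 and Krt16, and 3 lines per origin limit what could be detected. Over all genes, 624 were called against primary lines and 395 against lung lines. Dropping 1 line gave 273 to 556 and 69 to 417, every probe set 246 and 92, the 6 arrays compared 197 and 107, no moderation 53 and 4, and dropping brain line 3 with lung line 1 gave 323 and 87.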
